A study of Mus musculus with 28 samples.

Results

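The iGfi1 line is a mouse embryonic stem cell (mESC) line in which doxycycline (Dox) switches on Gfi1 alone. The comparison described here is the one between its libraries with and without Dox, chosen by the line and treatment in their labels, and it holds 4 of the 28 RNA-seq libraries of the series. The 24 other libraries come from 6 lines that carry Atoh1 (iAtoh1), Pou4f3 (iPou4f3), both (iP+A), Gfi1 with either of them (iG+A, iG+P) or all of them (iGPA), and each line has its own untreated controls. All lines derive from the parental line A2loxCre, and iGfi1 carries Gfi1 and the fluorescent reporter mVenus, joined by a 2A peptide, behind a promoter that responds to Dox. The cells were differentiated as embryoid bodies (EBs), floating aggregates that form many cell types without further instruction, in serum and without LIF, and all libraries were made at day 6. In the Dox group, 2 µg/ml Dox was added at day 4 for 48 h and the Venus+ cells were sorted, whereas in the No Dox group whole untreated EBs of the same line were used without sorting. The effect of Gfi1, the effect of Dox itself and the effect of sorting therefore cannot be told apart within the line. Each group has 2 replicates, described in the series record as different clones. The p-values rest on the spread between replicates pooled over all 14 groups of the series, not on that of the iGfi1 libraries alone.

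Gfi1 is a zinc finger protein of the nucleus that binds DNA at sites around the bases AATC and represses transcription. Its short SNAG domain recruits the histone demethylase Kdm1a with its partner Rcor1, and histone deacetylases, to the genes it binds. It is known for its roles in blood stem cells and in the granulocyte and lymphocyte lineages, and in the inner ear it is needed for the survival and maturation of hair cells, where Atoh1 and Pou4f3 are also active. In these EBs it was induced without either partner.

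The sequences that Gfi1 is known to bind are shown first because the genes that fell are later read beside them. The study's own Gfi1 reporter oligo, R21, holds the site in 2 copies, and the capitals mark AAATCAC in it.
R21 forward: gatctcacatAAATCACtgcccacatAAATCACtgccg
The following promoters are those of the 4 most abundant named genes that fell and whose promoter held the same 7 bases. They run from 250 bases before to 50 after the start site, 5′ to 3′ on the strand of the gene, and were taken from RefSeq on build GRCm38.p6. Capitals mark AAATCAC, or AATCAC alone, on either strand.
Meg3, chr12:109540746-109541045, plus strand: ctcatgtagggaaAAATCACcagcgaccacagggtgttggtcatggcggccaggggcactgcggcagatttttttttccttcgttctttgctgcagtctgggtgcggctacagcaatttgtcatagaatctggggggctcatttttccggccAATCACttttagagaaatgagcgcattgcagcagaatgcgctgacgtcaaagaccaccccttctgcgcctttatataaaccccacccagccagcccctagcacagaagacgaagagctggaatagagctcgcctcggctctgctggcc
Mest, chr6:30733256-30733555, plus strand: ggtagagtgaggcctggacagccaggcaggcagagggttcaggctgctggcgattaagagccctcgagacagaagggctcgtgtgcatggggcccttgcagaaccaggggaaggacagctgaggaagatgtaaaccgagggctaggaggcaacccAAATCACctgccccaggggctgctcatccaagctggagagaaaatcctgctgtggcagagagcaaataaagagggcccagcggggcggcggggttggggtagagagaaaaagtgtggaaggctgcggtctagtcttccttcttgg
Dab2, chr15:6299539-6299838, plus strand: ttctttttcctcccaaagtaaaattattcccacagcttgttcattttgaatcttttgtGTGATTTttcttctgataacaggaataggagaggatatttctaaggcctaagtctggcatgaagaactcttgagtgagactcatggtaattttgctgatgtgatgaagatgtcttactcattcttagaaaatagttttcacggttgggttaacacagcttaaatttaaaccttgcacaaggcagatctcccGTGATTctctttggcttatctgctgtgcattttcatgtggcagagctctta
Plac1, chrX:53240061-53240360, minus strand: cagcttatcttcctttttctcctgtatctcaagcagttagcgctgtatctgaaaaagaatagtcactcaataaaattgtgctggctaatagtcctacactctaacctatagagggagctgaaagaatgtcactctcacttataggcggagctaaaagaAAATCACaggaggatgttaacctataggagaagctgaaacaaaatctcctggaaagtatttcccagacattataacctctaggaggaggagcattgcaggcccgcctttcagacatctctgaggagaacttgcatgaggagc
The 7 bases began 237 bases before the start site in Meg3, an imprinted noncoding RNA, 95 before it in Mest, an imprinted gene of mesoderm, and 92 before it in Plac1, a gene of the placenta. In Dab2, an endocytic adaptor abundant in visceral endoderm, they lay on the opposite strand with their first printed base 192 before the start site. Meg3 and Dab2 each held 1 further match to AATCAC alone.

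Matches to these letters were uncommon in all promoters. Promoters were found for 310 of the 449 genes that fell and for 262 of the 362 that rose, with several promoters for some genes that can overlap. AATCAC stood in 40 of 401 promoters of the genes that fell (9.98%), in 23 of 333 of those that rose (6.91%), in 8.71% of the 16562 promoters of all genes tested and in 10.4% of all 32851 promoters in the table. AAATCAC, which is AATCAC with 1 more A before it, stood in 15 promoters of the genes that fell (3.74%) and in 3 of those that rose (0.901%), against 2.22% for all genes tested and 3.20% for all promoters. AAATC followed after any 3 bases by GC stood in 15 promoters of the genes that fell (3.74%) and in 5 of those that rose (1.5%), against 2.55% for all genes tested and 2.82% for all promoters. Each search read both strands. A match is only a match of letters in this window, and no test was made of these shares.

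Gfi1 itself rose strongly and in both replicates. On the scale of normalized counts, Gfi1 (chr5:108145674-108155056 in NCBIM37, as are all gene positions below) was at 68.8 and 58.1 normalized counts without Dox and 10800 and 9778 with Dox (log2 fold change 7.32 ± 0.25 (SE), limma adjusted p = 1.58e-12). Both Dox libraries were far above both untreated ones, and reads of the transgene and of the endogenous gene cannot be told apart in these values. Hprt (chrX:50341314-50374836), the X-linked housekeeping gene at which A2lox cassettes are integrated, was at 345 and 330.1 normalized counts without Dox and 9733 and 7743 with Dox (log2 fold change 4.68 ± 0.19 (SE), limma adjusted p = 1.80e-11). Hprt rose in all 7 lines, with log2 fold changes from 2.28 in iAtoh1 to 4.77 in iG+P, so its rise was not limited to lines with Gfi1. Atoh1, the proneural factor that starts hair cell development, was at 8.05 and 5.01 normalized counts without Dox and 27.1 and 31.9 with Dox (log2 fold change 2.04 ± 0.33 (SE), limma adjusted p = 2.50e-04), a low level throughout. Its call was lost when all 14 untreated libraries of the series served as the control (log2 fold change 0.26, adjusted p = 0.873). Pou4f3 was at 18.2 and 12.03 normalized counts without Dox and 28.02 and 27.7 with Dox, and its log2 fold change of 0.87 did not pass (limma adjusted p = 0.178). Both partners thus stayed near the bottom of the range in the iGfi1 line.

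With Gfi1 alone, 449 genes fell and 362 rose among 16837 genes tested. A gene was called where the limma adjusted p was below 0.05 and the log2 fold change was 1.5 or more, up or down, which 2.67% of genes met downwards and 2.15% upwards. Fold changes are differences of log2(normalized count + 1), which understate the change of genes with few counts. All 811 genes called had both Dox libraries on one side of both untreated ones, a condition that 34.6% of all genes met upwards and 32.5% downwards. The genes that fell were the more abundant, with a median of 342 normalized counts without Dox and 85.8 with Dox. Those that rose came from low levels, with a median of 21 without Dox and 95.6 with Dox, and 127 of them stayed below 50 normalized counts with Dox. The median log2 fold change was -1.93 for the genes that fell, 2.01 for those that rose and 0.02 for all genes tested, with a median standard error of 0.18. Estimated depth was 37.7 to 40.01 M reads in the 4 libraries, and 17911 to 18048 genes were above 0 in each. The counts leaned on Dox replicate 1. Without it 291 genes fell and 223 rose, and without Dox replicate 2 the counts were 546 and 334.

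**Figure D1:**
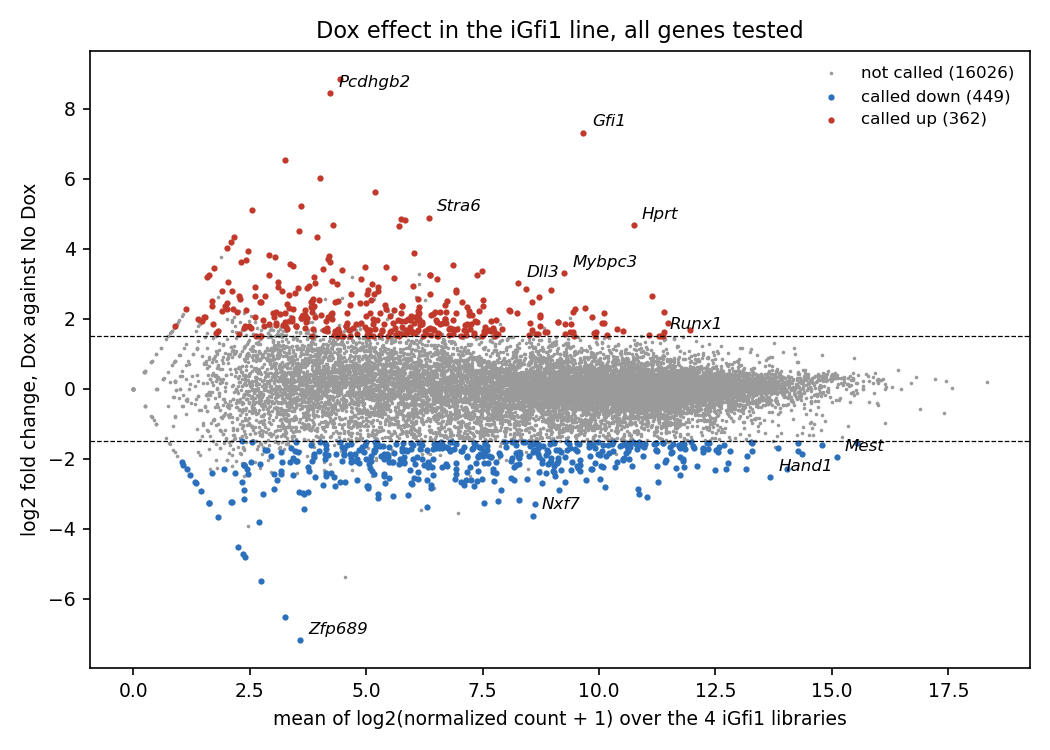
Each point is 1 of the 16837 genes tested in the iGfi1 line, with the mean of log2(normalized count + 1) over the 4 libraries on the x axis and the log2 fold change between Dox and No Dox on the y axis. Red points are the 362 genes called up, blue points the 449 called down, grey points the rest, and dashed lines mark 1.5 in either direction. Blue points reach the abundant genes at the right, such as Mest and Hand1, while most red points lie at low levels.

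The 15 largest rises included Pcdhgb2, Flrt1, Stra6, Slitrk6 and Kcnj12. Pcdhgb2, a protocadherin of the gamma cluster, had no counts listed in either untreated library (0 in both) and reached 532 and 229 normalized counts with Dox (limma adjusted p = 1.91e-10). Gamma protocadherins share their last exons, so reads can be split between them uncertainly, and the 5 other gamma members tested had log2 fold changes from -1.42 in Pcdhgc3 to -0.33 in Pcdhga7, none of them called. Only 6 of the 22 gamma members looked for had values in the deposited data. Flrt1, a transmembrane protein of cell adhesion and guidance, was likewise listed at 0 without Dox and reached 80.2 and 104 with Dox (limma adjusted p = 1.49e-04). Within this line both genes were thus above 0 only with Dox. Stra6 (chr9:57911595-58001803), the cell surface receptor that takes up retinol, was at 16.2 and 11.9 normalized counts without Dox and 572 and 345 with Dox (log2 fold change 4.90 ± 0.39 (SE), limma adjusted p = 2.28e-07). Slitrk6, a neuronal membrane protein also known from the inner ear, was at 8.004 and 11.01 normalized counts without Dox and 274 and 251 with Dox (log2 fold change 4.66 ± 0.74 (SE), limma adjusted p = 2.00e-04). Kcnj12, an inwardly rectifying potassium channel, was at 11.2 and 22.4 normalized counts without Dox and 221 and 277 with Dox (log2 fold change 3.88 ± 0.56 (SE), limma adjusted p = 9.47e-05). In all of these the lowest Dox library was far above the highest untreated one. Pnliprp2, a lipase of the pancreas, rose by 4.87, and Rbp3, which carries retinoids between the cells of the retina, by 4.69. The cadherin Cdh9 (4.53), Wfdc1 (4.33), the serum protein Ahsg (3.80), the arginine methyltransferase Prmt8 (3.71), Tctex1d1 (5.23) and 2900052N01Rik (5.63) made up the rest beside Gfi1 and Hprt. Of the 15, the call of Cdh9 (adjusted p = 0.0653 without No Dox replicate 2) was lost with 1 library left out.

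Among the largest falls were Nxf7, Myh7, Plat, Svep1, Asb4 and Plac1. Nxf7 (chrX:132114094-132133316), a member of the family that exports RNA from the nucleus, was at 1282 and 1431 normalized counts without Dox and 82.1 and 145 with Dox (log2 fold change -3.62 ± 0.34 (SE), limma adjusted p = 1.40e-06). Myh7 (chr14:55589525-55613471), the beta myosin heavy chain of heart muscle, was at 1217 and 1262 normalized counts without Dox and 153 and 103 with Dox (log2 fold change -3.29 ± 0.74 (SE), limma adjusted p = 0.00303). Plat, the tissue plasminogen activator, was at 952 and 919 normalized counts without Dox and 109 and 96.9 with Dox (log2 fold change -3.17 ± 0.28 (SE), limma adjusted p = 7.08e-07). In each of them both Dox libraries were far below both untreated ones. Svep1, a large adhesion protein of the matrix, was at 5725 and 6473 normalized counts without Dox and 439.8 and 1145 with Dox (log2 fold change -3.10 ± 0.62 (SE), limma adjusted p = 0.00142). Asb4, a ubiquitin ligase adaptor of the early vasculature, was at 5298 and 5239 normalized counts without Dox and 629 and 685 with Dox (log2 fold change -3.003 ± 0.21 (SE), limma adjusted p = 7.67e-08). Plac1 was at 1459 and 1638 normalized counts without Dox and 160 and 267 with Dox (log2 fold change -2.90 ± 0.39 (SE), limma adjusted p = 5.39e-05). The replicates agreed closely in Asb4 and less so in Svep1, whose Dox replicate 2 was the higher. Zfp689, a zinc finger gene, was at 153 and 133 without Dox and was listed at 0 in both Dox libraries (limma adjusted p = 4.47e-05). Further large falls were Fmod (-3.38), Pcdhac2 (-3.25), Kctd12b (-3.21), Col8a1 (-3.11), Emp1 (-3.07), Rem1 (-3.03) and Ntsr1 (-2.997), of which Fmod and Col8a1 encode matrix proteins and Ntsr1 the neurotensin receptor. With 1 library left out the calls of Fmod (adjusted p = 0.0552 without Dox replicate 1 and adjusted p = 0.0652 without No Dox replicate 1) and Pcdhac2 (any 1 library, adjusted p up to 0.119) were lost, and Myh7 was no longer called against all 14 untreated libraries (log2 fold change -1.78, adjusted p = 0.0536). The rule for these genes left out 4 called rises and 5 called falls of genes that were at 0 in one untreated library of the series and above 50 in another. Other settings ended the calls of Pcdhac2 (a pseudocount of 0.5).

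**Figure D2:**
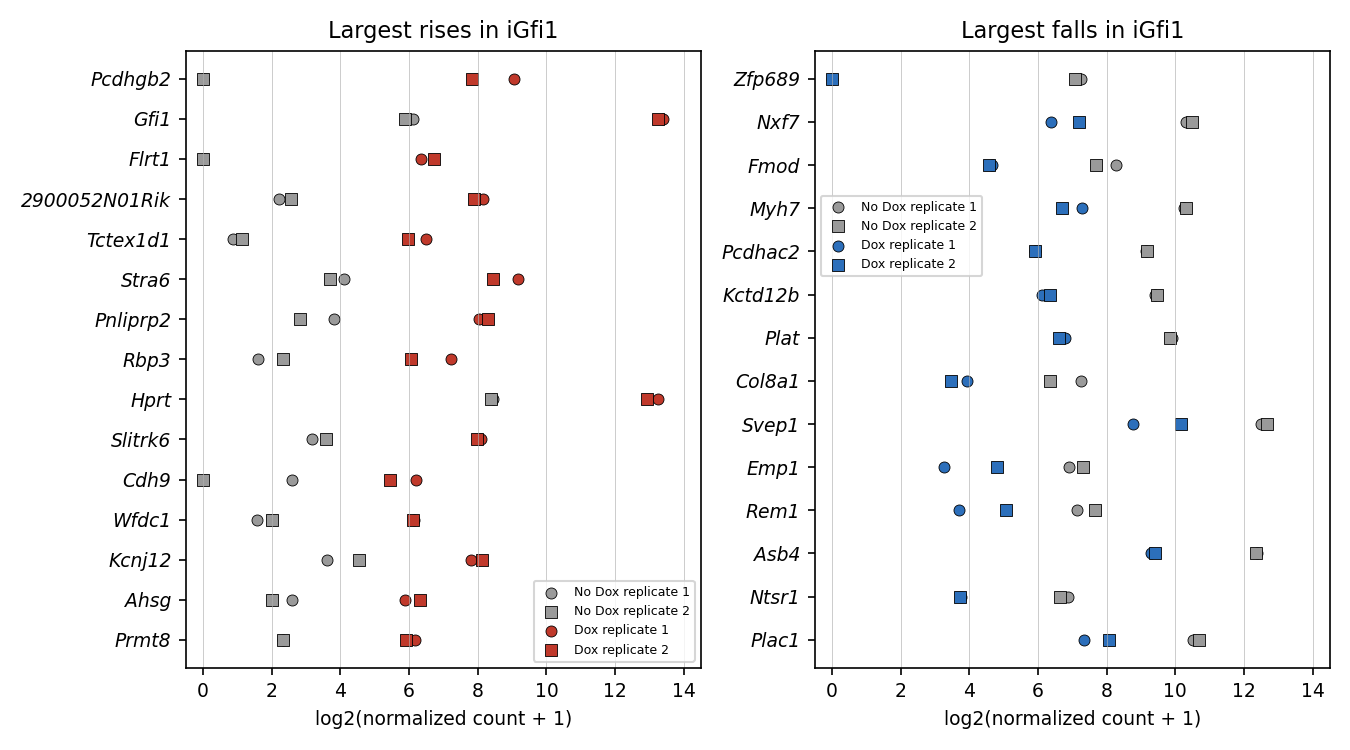
Each row is 1 gene and each point 1 iGfi1 library, with log2(normalized count + 1) on the x axis, grey for No Dox, red or blue for Dox, circles for replicate 1 and squares for replicate 2, for the largest rises and falls reported here. The genes were chosen for groups that lie apart, so that the separation in each row was fixed by the choice. Pcdhgb2 and Flrt1 stand at 0 without Dox and Zfp689 at 0 with Dox.

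The genes were next grouped by 42 lists of pathways, cell types and families. Of the 952 list genes tested, 73 fell and 39 rose, and in 7 lists no gene was called. Without Dox replicate 1, 47 fell and 24 rose. Counts and medians of a list are to be read beside the values of all genes tested, of which 2.67% fell and 2.15% rose with a median of 0.02. In bulk RNA, fewer cells of a type and less RNA per cell cannot be told apart, so a fall of a marker list can be either.

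**Figure D3:**
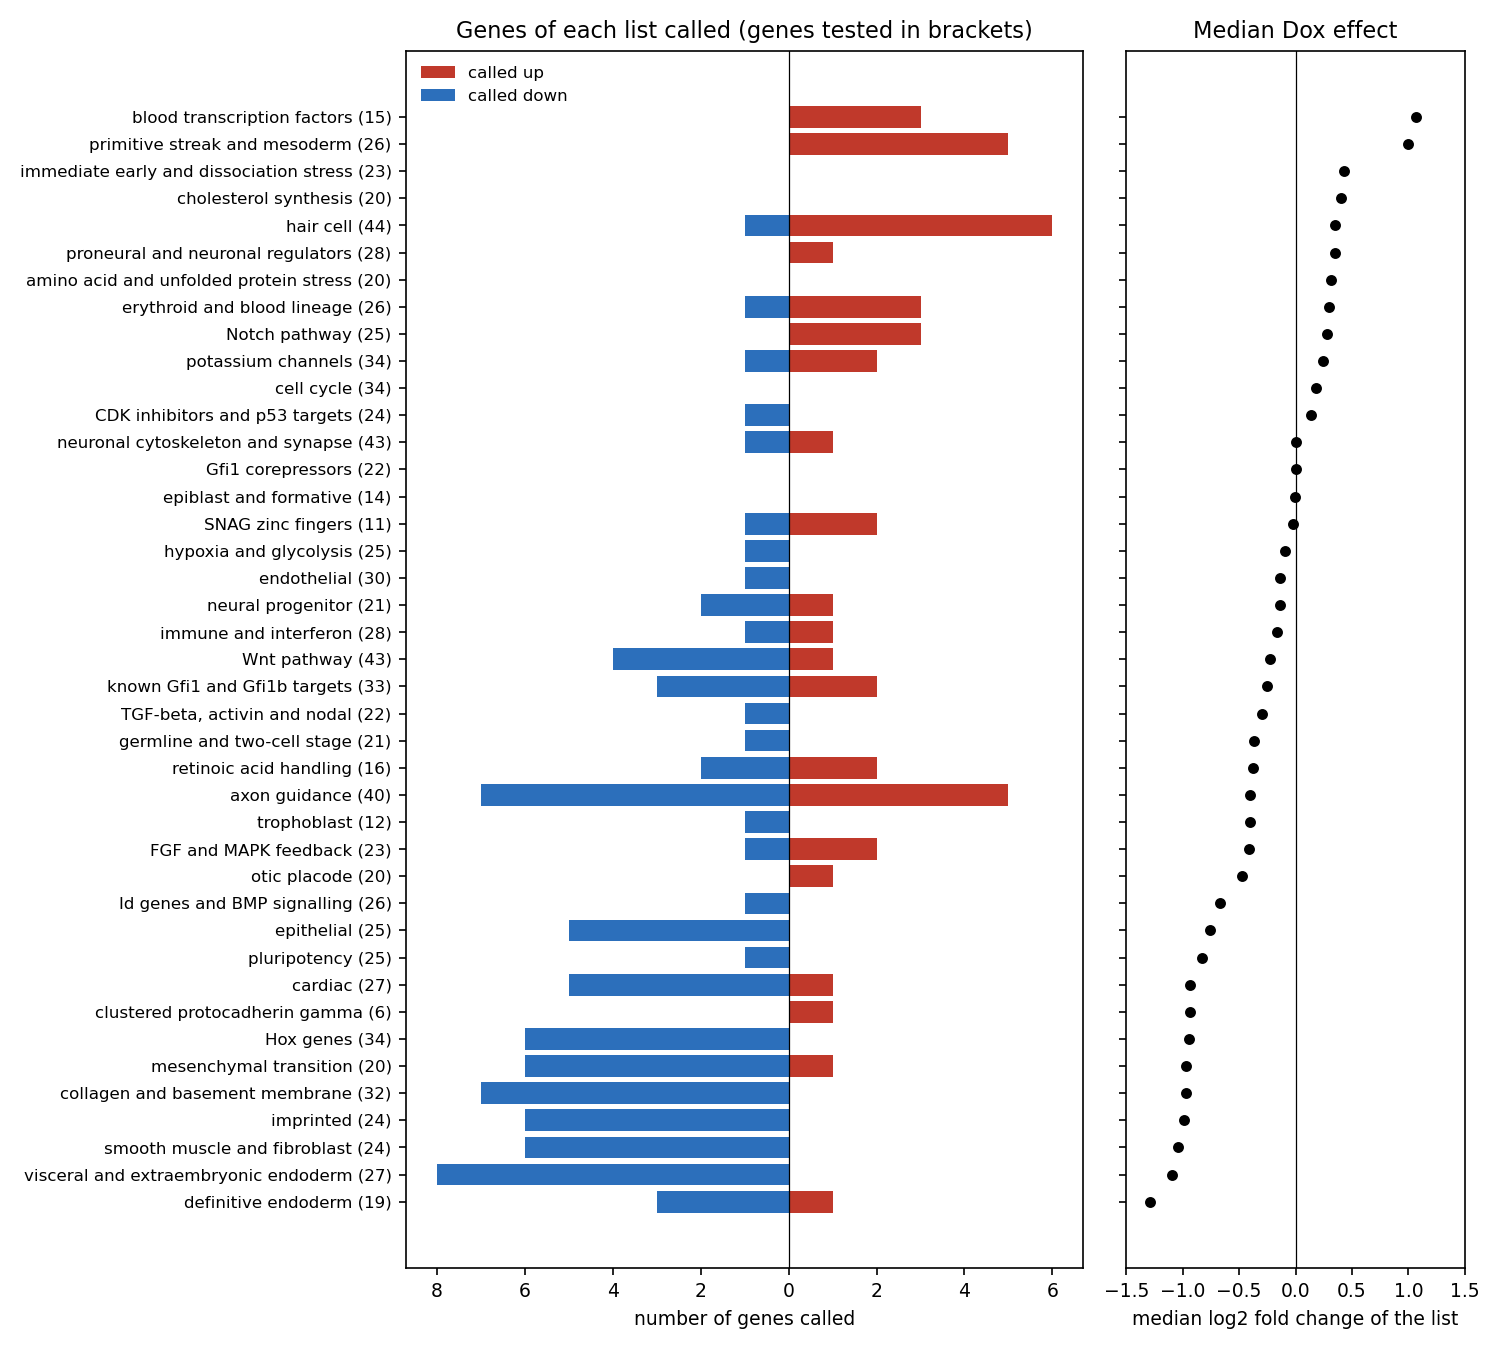
Bars give, for each of 41 gene lists (the sex chromosome genes are not drawn), how many genes were called up (red, to the right) or down (blue, to the left) in iGfi1, with the number tested in brackets, and points give the median log2 fold change of the list. Visceral and extraembryonic endoderm had 8 falls of 27 and hair cell genes, with the induced Gfi1 counted among them, had 6 rises of 44, and medians ran from -1.29 in definitive endoderm to 1.07 in the blood transcription factors.

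More heart genes fell than rose with Gfi1. Of 27 cardiac genes tested, 5 fell and 1 rose, 25 had a negative log2 fold change, and the median was -0.93. Their summed normalized counts were 76590 and 79330 without Dox and 23950 and 34370 with Dox, and the groups did not overlap. Hand1 (chr11:57642207-57646320), a bHLH factor of the heart tube, lateral mesoderm and trophoblast, was at 28560 and 34380 normalized counts without Dox and 4111 and 7322 with Dox (log2 fold change -2.51 ± 0.32 (SE), limma adjusted p = 3.00e-05). Tbx20, a T-box factor of the heart, was at 7243 and 6872 normalized counts without Dox and 982 and 2226 with Dox (log2 fold change -2.25 ± 0.38 (SE), limma adjusted p = 3.65e-04). In both, Dox replicate 1 was the lowest library. Hand2, a bHLH factor related to Hand1, was at 6927 and 5132 normalized counts without Dox and 1876 and 1975 with Dox (log2 fold change -1.63 ± 0.30 (SE)). Nkx2-5, the homeobox factor of cardiac progenitors, was at 122 and 96.1 normalized counts without Dox and 19.3 and 16.5 with Dox (log2 fold change -2.53 ± 0.83 (SE)). Myl7, the atrial myosin light chain, had a log2 fold change of -2.30 and Tnnt2, cardiac troponin T, of -0.94, and neither passed (limma adjusted p = 0.0864 and 0.314). Mybpc3 (chr2:90958301-90976673), the cardiac myosin binding protein, went the other way and was at 207 and 179 normalized counts without Dox and 2521 and 1469 with Dox (log2 fold change 3.31 ± 0.51 (SE), limma adjusted p = 1.49e-04). Left-out libraries took away the calls of Nkx2-5 (any 1 library, adjusted p up to 0.131) and Hand2 (log2 fold change -1.41 without No Dox replicate 1), and against all 14 untreated libraries 2 genes of the list fell and 2 rose. With all 14 untreated libraries as the control, Hand2 and Nkx2-5 were not called either. In iG+P 9 cardiac genes fell and 3 rose (median -0.84). In iG+A 3 fell and 3 rose (-0.006), and in iGPA 4 fell and 4 rose (-0.005).

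The lists of smooth muscle, fibroblasts and extracellular matrix held falls and no rise. Of 24 smooth muscle and fibroblast genes 6 fell, with a median of -1.04. Acta2, smooth muscle actin, was at 38320 and 35060 normalized counts without Dox and 5220 and 11000 with Dox (log2 fold change -2.27 ± 0.42 (SE), limma adjusted p = 7.85e-04). Vim, the intermediate filament of mesenchyme, was at 37390 and 35410 normalized counts without Dox and 9316 and 12190 with Dox (log2 fold change -1.77 ± 0.22 (SE), limma adjusted p = 1.80e-05). The untreated libraries were close to each other in both genes, and Dox replicate 1 was the lower of the Dox pair. The other falls were Twist2 (-1.79), Cald1 (-1.68), Col1a2 (-2.11) and Col1a1 (-1.59), a mesenchymal bHLH factor, an actin regulator and the chains of type I collagen. Of 32 collagen and basement membrane genes 7 fell and 29 were below 0, with a median of -0.97, and their summed counts were 406200 and 385000 without Dox and 205700 and 236700 with Dox. Beside the type I chains these were Col5a2 (-2.37), Tnc (-2.30), Col4a5 (-2.21), Nid1 (-1.81) and Lama1 (-1.78), the last 3 of them parts of basement membranes. The falls of this list numbered 11 without No Dox replicate 2 and 5 against all 14 untreated libraries. Of 20 genes of mesenchymal transition 6 fell and Foxc2 rose, with a median of -0.97. Lgals1, a galectin of mesenchymal cells, was at 6246 and 6074 normalized counts without Dox and 837 and 1130 with Dox (log2 fold change -2.66 ± 0.23 (SE), limma adjusted p = 6.65e-07), and the cadherin Cdh11 and the SNAG family repressor Snai2 fell as well (-1.79 and -1.54). With 1 library left out, the calls of Cald1 (log2 fold change -1.32 without Dox replicate 1), Col1a1 (adjusted p = 0.0968 without Dox replicate 1), Col5a2 (adjusted p = 0.0905 without Dox replicate 2 and adjusted p = 0.0977 without No Dox replicate 1) and Snai2 (any 1 library but Dox replicate 2, adjusted p up to 0.26) were lost. Cald1, Col1a1, Col5a2 and Snai2 were not called against all 14 untreated libraries. Calls also ended for Snai2 (quantile normalization, 75th percentile rescaling and a fit of only the groups compared). In lines without Gfi1, 3 smooth muscle and fibroblast genes fell and 1 rose in each of iAtoh1 (median -0.81) and iP+A (-0.93). None was called in iPou4f3 (-0.38). Of the collagen and basement membrane genes 5 fell and 3 rose in iAtoh1, 2 fell in iP+A and 1 fell in iPou4f3. Col1a2 fell in iAtoh1 (-1.6) and Col1a1 in iP+A (-1.51).

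Some endodermal and epithelial genes fell too. Of 27 genes of visceral and extraembryonic endoderm, the tissue around the early embryo that secretes serum proteins, 8 fell, 26 were below 0 and the median was -1.10. Their summed counts were 119500 and 117700 without Dox and 44290 and 59090 with Dox. Dab2 was at 7355 and 6926 normalized counts without Dox and 1342 and 2367 with Dox (log2 fold change -2.001 ± 0.37 (SE), limma adjusted p = 7.02e-04), and Rbp4, the serum carrier of retinol, was at 1192 and 1306 normalized counts without Dox and 184 and 268 with Dox (log2 fold change -2.48 ± 0.46 (SE), limma adjusted p = 7.30e-04). In both genes the Dox libraries were well below the untreated ones, and Dox replicate 1 was the lowest. The other falls were Ttr (-2.37), Apob (-2.21), Spink1 (-2.15), Fgb (-2.09), Ctsh (-1.75) and Lama1 (-1.78). Of 19 definitive endoderm genes 3 fell, namely Hnf4a (-2.34), Spink1 (-2.15) and Cldn6 (-1.72), and Nkx2-1, a factor of lung and thyroid, rose from 0.72 and 3.44 to 19.9 and 10.6 normalized counts. The list's median was -1.29, the lowest of the 42. With the replicate as a block, and with 1 of the other scalings, 5 of its genes fell, whereas none fell without Dox replicate 1 or against all 14 untreated libraries. Sox17 (-1.49, adjusted p = 0.0261 by limma) lay just short of the size limit. Of 25 epithelial genes 5 fell, among them the keratins Krt19 (-2.36), Krt8 (-1.74) and Krt18 (-1.52), and the median was -0.76. Krt19 was at 1224 and 1102 normalized counts without Dox and 219 and 233 with Dox (log2 fold change -2.36 ± 0.26 (SE), limma adjusted p = 7.04e-06) and kept its call with each library left out. The calls of Ttr (adjusted p = 0.105 without Dox replicate 1 and adjusted p = 0.105 without No Dox replicate 2), Apob (any 1 library, adjusted p up to 0.201), Spink1 (any 1 library, adjusted p up to 0.143), Fgb (any 1 library, adjusted p up to 0.133), Ctsh (adjusted p = 0.0626 without Dox replicate 1 and adjusted p = 0.0616 without No Dox replicate 2), Hnf4a (adjusted p = 0.0537 without Dox replicate 1), Cldn6 (any 1 library, adjusted p up to 0.116), Nkx2-1 (adjusted p = 0.186 without Dox replicate 1 and adjusted p = 0.21 without No Dox replicate 1), Krt8 (log2 fold change -1.37 without Dox replicate 1), Krt18 (adjusted p = 0.0771 without Dox replicate 1 and log2 fold change -1.47 without No Dox replicate 2) and Esrp1 (any 1 library, adjusted p up to 0.144) were lost with 1 library left out. Against all 14 untreated libraries 3 genes of visceral endoderm and 2 epithelial genes fell, and without Dox replicate 1 these counts were 3 and 1. Lines without Gfi1 showed falls in the same lists. In iAtoh1 8 visceral endoderm genes fell with a median of -1.08, and 7 epithelial genes fell there and 6 in iP+A. In neither list did a gene differ downwards in iGfi1 from the mean of the lines without Gfi1. With quantile normalization or rescaling by the 75th percentile 3 epithelial genes fell, and Apob was not called with the replicate block (adjusted p = 0.0613). With all 14 untreated libraries as the control, Apob, Cldn6, Ctsh, Esrp1, Fgb, Hnf4a, Krt18, Nkx2-1, Spink1 and Ttr were not called either. Other settings ended the calls of Apob (limma without a trend), Esrp1 (quantile normalization, 75th percentile rescaling and limma without a trend), Krt18 (quantile normalization and 75th percentile rescaling) and Nkx2-1 (a fit of only the groups compared).

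Hox genes and imprinted genes also leaned downwards. Of 34 Hox genes, which give cells their position along the body, 6 fell, none rose and 28 were below 0, with a median of -0.94. Hoxb7 was at 118 and 105 normalized counts without Dox and 34.8 and 31.9 with Dox (log2 fold change -1.71 ± 0.40 (SE), limma adjusted p = 0.00423), and both Dox libraries were well below both untreated ones. Hoxb6 (-2.57), Hoxa13 (-1.90), Hoxc8 (-1.77) and Hoxc4 (-1.66) were also among the falls. With both other scalings again 6 fell, but 2 fell without No Dox replicate 1, 4 without either Dox replicate and 12 against all 14 untreated libraries. Of 24 imprinted genes, which are read from only 1 parental copy, 6 fell, none rose and the median was -0.99. Mest was at 65600 and 72600 normalized counts without Dox and 16250 and 19640 with Dox (log2 fold change -1.95 ± 0.19 (SE), limma adjusted p = 1.79e-06). Dlk1, a transmembrane regulator of growth, was at 21210 and 19040 normalized counts without Dox and 3480 and 4801 with Dox (log2 fold change -2.30 ± 0.34 (SE), limma adjusted p = 1.28e-04), and Meg3, read from the other parental copy of the same region of chromosome 12, was at 87520 and 75780 normalized counts without Dox and 23000 and 33250 with Dox (log2 fold change -1.56 ± 0.22 (SE), limma adjusted p = 6.10e-05). Rian (-1.55) and Mirg (-1.82), noncoding RNAs that follow Meg3, fell with it, as did Magel2 (-1.90). H19 (0.92) and Igf2 (-0.68), the best known imprinted pair, were not called (limma adjusted p = 0.0592 and 0.00794). Calls lost with 1 library left out were those of Hoxb6 (any 1 library, adjusted p up to 0.168), Hoxa13 (adjusted p = 0.125 without Dox replicate 2 and adjusted p = 0.105 without No Dox replicate 1), Hoxc8 (adjusted p = 0.0509 without No Dox replicate 1), Hoxc4 (log2 fold change -1.35 without Dox replicate 1 and log2 fold change -1.45 without No Dox replicate 1), Meg3 (log2 fold change -1.29 without Dox replicate 1 and log2 fold change -1.45 without No Dox replicate 1) and Rian (log2 fold change -1.34 without Dox replicate 1). Meg3 and Rian were not called against all 14 untreated libraries. Among other settings, calls ended for Hoxb6 (a pseudocount of 0.5 and limma without a trend) and Rian (75th percentile rescaling). In iG+P 24 Hox genes fell (median -2.71), in iGPA 18 (-1.9) and in iG+A 11 (-0.03), with 0, 1 and 4 rises. Of the imprinted genes 11 fell in iG+P (median -1.33), 8 in iGPA (-0.73) and 4 in iG+A (-0.06), with 0, 0 and 1 rises. In that list 2 genes differed downwards in iGfi1 from the mean of the lines without Gfi1 and 1 upwards. Dlk1 also fell in iAtoh1 (-1.6), and its difference from that mean was -1.06, short of the limit.

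A few blood regulators rose with Gfi1, and no globin was called. Of 15 transcription factors of early blood 3 rose, none fell, 13 were above 0 and the median was 1.07. Lmo2, a bridging factor of the blood stem cell complex, was at 1447 and 1515 normalized counts without Dox and 6483 and 4582 with Dox (log2 fold change 1.88 ± 0.29 (SE), limma adjusted p = 1.42e-04). Runx1 (chr16:92601712-92826311), required for the first definitive blood cells, was at 1334 and 1734 normalized counts without Dox and 4139 and 4648 with Dox (log2 fold change 1.53 ± 0.31 (SE), limma adjusted p = 0.00137), and Ikzf1, a zinc finger factor of lymphoid cells, was at 1276 and 1236 normalized counts without Dox and 4179 and 3219 with Dox (log2 fold change 1.54 ± 0.25 (SE), limma adjusted p = 2.37e-04). The groups lay well apart in these genes. Tal1 (1.07), Gata1 (1.08), Klf1 (1.25) and Myb (1.27), regulators of blood and red cells, were below the size limit, with limma adjusted p from 0.00787 to 0.0218. Spi1, the factor of myeloid cells that Gfi1 is known to antagonise, had a log2 fold change of -0.45 (limma adjusted p = 0.169). Of 26 erythroid and blood lineage genes 3 rose and 1 fell. Rhag and Kel, surface proteins of red cells, rose by 2.05 and 1.61, and Rhag was at 518 and 391 normalized counts without Dox and 2768 and 1267 with Dox. Kel was at 1840 and 1280 normalized counts without Dox and 6557 and 3373 with Dox, and Gp9, a platelet protein, rose by 2.15. Fcer1g, a receptor chain of myeloid cells, fell by 1.78 on the log2 scale. The embryonic globin Hbb-bh1 was at 161500 and 114500 normalized counts without Dox and 226700 and 123300 with Dox, higher with Dox within each replicate number, and its log2 fold change of 0.30 did not pass (limma adjusted p = 0.697). The list's summed counts were 328400 and 223900 without Dox and 482500 and 255300 with Dox, higher in replicate 1 of either group and higher with Dox within each replicate number. Left-out libraries took away the calls of Runx1 (log2 fold change 1.44 without Dox replicate 2 and log2 fold change 1.34 without No Dox replicate 1), Ikzf1 (log2 fold change 1.36 without Dox replicate 1), Rhag (adjusted p = 0.137 without Dox replicate 1 and adjusted p = 0.0751 without No Dox replicate 2), Kel (adjusted p = 0.146 without Dox replicate 1 and adjusted p = 0.0924 without No Dox replicate 2), Gp9 (adjusted p = 0.149 without Dox replicate 1 and adjusted p = 0.0698 without No Dox replicate 2) and Fcer1g (adjusted p = 0.134 without Dox replicate 2). No erythroid gene was called up without Dox replicate 1 or without No Dox replicate 2, whereas 5 were without Dox replicate 2. Against all 14 untreated libraries only Lmo2 of the 15 factors was called. With all 14 untreated libraries as the control, Ikzf1, Kel and Runx1 were not called either. Calls also ended for Fcer1g (a pseudocount of 5 and a fit of only the groups compared).

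Genes of the primitive streak and early mesoderm were the other group with a high median. Of 26 such genes 5 rose, none fell and the median was 0.99, and with the replicate as a block 10 rose. Without Dox replicate 1 only 2 rose, and without No Dox replicate 1 only 3. Foxc1, a forkhead factor of paraxial mesoderm, was at 315 and 264 normalized counts without Dox and 1363 and 855 with Dox (log2 fold change 1.90 ± 0.38 (SE), limma adjusted p = 0.00142). Fgf17, a growth factor of the posterior embryo, was at 16.01 and 8.01 normalized counts without Dox and 103 and 91.7 with Dox (log2 fold change 2.99 ± 0.66 (SE), limma adjusted p = 0.00271). The groups were well apart in both, although Fgf17 was low without Dox. The others were Foxc2 (2.11), Tcf15 (1.98) and Cdx1 (1.93), factors of somites and of the posterior axis. Mesp1, the bHLH factor of nascent mesoderm, was at 51.6 and 18.1 normalized counts without Dox and 193 and 176 with Dox, and its log2 fold change of 2.55 did not pass (limma adjusted p = 0.169), nor did that of T, the streak factor Brachyury (0.88, adjusted p = 0.64). The calls of Foxc2 (any 1 library but Dox replicate 2, adjusted p up to 0.177), Tcf15 (adjusted p = 0.0954 without Dox replicate 1) and Cdx1 (adjusted p = 0.25 without Dox replicate 1 and adjusted p = 0.254 without No Dox replicate 1) were lost with 1 library left out. Cdx1 was not called against all 14 untreated libraries. Other settings ended the calls of Cdx1 (a pseudocount of 5 and a fit of only the groups compared).

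In the Notch pathway, by which neighbouring cells choose different fates, 3 of 25 genes rose and none fell. Dll3 was at 120 and 94.1 normalized counts without Dox and 1233 and 621 with Dox (log2 fold change 3.03 ± 0.68 (SE), limma adjusted p = 0.00307) and Dll1, a ligand that activates the receptors, was at 96 and 65.04 normalized counts without Dox and 368 and 459 with Dox (log2 fold change 2.36 ± 0.57 (SE), limma adjusted p = 0.00514). Lfng, which modifies the receptor, rose by 1.67, whereas the targets Hes1 (-0.32) and Hes5 (0.83) were not called (limma adjusted p = 0.538 and 0.522). In the Wnt pathway 4 of 43 genes fell and 1 rose. The ligand Wnt11, which acts in heart and axis formation, was at 1101 and 1127 normalized counts without Dox and 133 and 221 with Dox (log2 fold change -2.69 ± 0.41 (SE), limma adjusted p = 1.33e-04), and the secreted inhibitors Frzb (-2.10), Dkk1 (-1.97) and Dkk2 (-1.71) fell as well. Lgr5, the R-spondin receptor that marks stem cells, rose from 923 and 594 to 3177 and 1836 normalized counts. Among 23 genes of the FGF pathway Fgf17 and Fgf3 (1.89) rose and the receptor Fgfr4 fell by 2.74 on the log2 scale. That list had 16 genes below 0 and a median of -0.41. Among 16 genes that handle retinoic acid, the retinol receptor Stra6 and the synthesising enzyme Aldh1a3 (1.70) rose, and the carriers Rbp4 and Crabp1 (-1.89) fell. In the list of Id genes and BMP signalling 1 of 26 genes fell (Smad9, -1.68), while 22 were below 0, the median was -0.67 and 20 had both Dox libraries below both untreated ones, against 32.5% of all genes. Without Dox replicate 2, 4 of its genes fell and without No Dox replicate 2, 3 fell, whereas none fell against all 14 untreated libraries. Id1, Id2 and Id3, inhibitors of bHLH factors and known Gfi1 targets, had log2 fold changes of -0.37, -0.67 and -0.59, short of the limit of 1.5. With 1 library left out the calls of Dll3 (adjusted p = 0.0565 without Dox replicate 1), Dll1 (adjusted p = 0.0592 without No Dox replicate 2), Lfng (adjusted p = 0.0541 without No Dox replicate 2), Dkk2 (adjusted p = 0.0596 without No Dox replicate 1), Lgr5 (adjusted p = 0.102 without Dox replicate 1 and adjusted p = 0.0815 without No Dox replicate 2), Fgfr4 (adjusted p = 0.0915 without Dox replicate 1 and adjusted p = 0.127 without No Dox replicate 2), Crabp1 (adjusted p = 0.0589 without Dox replicate 1) and Smad9 (adjusted p = 0.057 without Dox replicate 1) were lost, and without Dox replicate 1 or No Dox replicate 2 no Wnt gene was called up. Without No Dox replicate 2 only 1 Notch gene rose. With all 14 untreated libraries as the control, Aldh1a3, Fgfr4 and Smad9 were not called either.

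Axon guidance genes, which steer growing nerve fibres and vessels, changed in both directions. Of 40 tested, 5 rose and 7 fell. Sema3d, a secreted semaphorin, was at 44.8 and 24.96 normalized counts without Dox and 324 and 490 with Dox (log2 fold change 3.53 ± 0.49 (SE), limma adjusted p = 5.75e-05), and Slit1 (1.93), the netrin receptors Dcc (1.87) and Unc5a (1.57) and Flrt1 also rose. Ephb2, an ephrin receptor, was at 2637 and 3247 normalized counts without Dox and 702 and 741 with Dox (log2 fold change -2.02 ± 0.17 (SE), limma adjusted p = 6.65e-07), and the ligand Efna1 was at 3163 and 2434 normalized counts without Dox and 456 and 929 with Dox (log2 fold change -2.09 ± 0.33 (SE), limma adjusted p = 1.90e-04). The genes that rose were low without Dox and those that fell were abundant. Some related pairs among the called genes split, with Slit1 up and Slit2 down (-1.70), Unc5a up and Unc5b down (-1.77) and Flrt1 up and Flrt3 down (-1.56). Nrp1 (-1.85), the semaphorin and VEGF receptor, and Efnb1 (-1.54) fell too. Against all 14 untreated libraries 4 genes of the list fell, and without Dox replicate 1 only 2. Calls lost with 1 library left out were those of Dcc (adjusted p = 0.057 without Dox replicate 1), Unc5a (log2 fold change 1.27 without Dox replicate 2 and log2 fold change 1.45 without No Dox replicate 1), Unc5b (log2 fold change -1.41 without Dox replicate 1), Slit2 (adjusted p = 0.182 without Dox replicate 1 and adjusted p = 0.0914 without No Dox replicate 2), Flrt3 (log2 fold change -1.36 without Dox replicate 1), Nrp1 (adjusted p = 0.0921 without Dox replicate 1) and Efnb1 (adjusted p = 0.0624 without Dox replicate 1 and log2 fold change -1.44 without No Dox replicate 2). Efnb1, Flrt3 and Nrp1 were not called against all 14 untreated libraries. Calls also ended for Efnb1 (quantile normalization and 75th percentile rescaling) and Flrt3 (quantile normalization).

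Hair cell genes included a few rises at low or moderate level. Of 44 tested 6 rose and 1 fell, Gfi1 among the rises, and the median was 0.35. In the lines with Pou4f3 and without Gfi1 more genes of this list rose, 12 in iPou4f3 and 16 in iP+A. Myo15, the motor that builds stereocilia, was at 307 and 269.8 normalized counts without Dox and 1493 and 787 with Dox (log2 fold change 1.91 ± 0.28 (SE), limma adjusted p = 9.24e-05). Pcdh15, a part of the tip link, was at 56.5 and 56.05 normalized counts without Dox and 349 and 189 with Dox (log2 fold change 2.17 ± 0.36 (SE), limma adjusted p = 2.77e-04), and Ush1c, a scaffold of the hair bundle, was at 31.9 and 27.01 normalized counts without Dox and 113 and 143 with Dox (log2 fold change 2.08 ± 0.30 (SE), limma adjusted p = 8.55e-05). In each gene the lower Dox library was well above the higher untreated one. Calb1, a calcium buffer, was listed at 0 without Dox and reached 7.73 and 9.28 with Dox, and Chrna9, the receptor of efferent fibres, was at 3.998 and 3.001 without Dox and listed at 0 with Dox. Defining markers did not pass, as Myo7a had a log2 fold change of 0.35, Myo6 of -0.33, Otof of 0.53 and Lhx3 of 0.22, with limma adjusted p from 0.0474 to 0.869. Otof was at 8.98 and 9.002 normalized counts without Dox and 12.6 and 14.4 with Dox and Lhx3 at 1.44 and 1.43 without Dox and 1.38 and 2.36 with Dox, so both were near the lower limit. Cdh23, the partner of Pcdh15 in the tip link, was at 59300 and 20380 normalized counts without Dox and 50370 and 17230 with Dox, so the replicates differed more than the groups. Neuronal genes gave little. Of 28 proneural and neuronal regulators Atoh1 alone was called, and of 43 genes of neuronal cytoskeleton and synapse Chga rose (2.06) and Gap43, a protein of growth cones, was at 818 and 616 normalized counts without Dox and 112 and 122 with Dox (log2 fold change -2.59 ± 0.37 (SE), limma adjusted p = 7.45e-05). Left-out libraries took away the calls of Myo15 (log2 fold change 1.45 without Dox replicate 1), Chrna9 (any 1 library, adjusted p up to 0.172) and Chga (adjusted p = 0.0615 without Dox replicate 2 and adjusted p = 0.0688 without No Dox replicate 2), and 2 genes of neuronal cytoskeleton and synapse rose without Dox replicate 1 or No Dox replicate 1. Other settings ended the calls of Calb1 (a pseudocount of 5) and Chrna9 (a pseudocount of 5 and quantile normalization).

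The machinery of Gfi1 and most of its known targets were not called. None of 22 corepressor genes passed in either direction. Kdm1a was at 11220 and 11910 normalized counts without Dox and 10380 and 11230 with Dox (-0.10 on the log2 scale) and Hdac2 at 8776 and 8954 normalized counts without Dox and 8647 and 9148 with Dox (0.00). Rcor1, the scaffold between them, was at 2411 and 2372 normalized counts without Dox and 3828 and 3508 with Dox (log2 fold change 0.62 ± 0.12 (SE), limma adjusted p = 8.47e-04), below the size limit. Of 33 genes known as targets of Gfi1 or its relative Gfi1b in blood, 3 fell and 2 rose, Gfi1 and Runx1 being the rises, and the median was -0.25. Csf1, the growth factor of macrophages and one of the classic targets, was at 1487 and 1670 normalized counts without Dox and 239 and 483 with Dox (log2 fold change -2.21 ± 0.30 (SE), limma adjusted p = 4.77e-05). Rgs18, a G protein regulator of platelets, was at 19.97 and 19.01 normalized counts without Dox and 2.90 and 3.09 with Dox, and Meg3 was the remaining fall. Against all 14 untreated libraries 1 gene of the list fell and 1 rose. As given above, the calls of Runx1 and Meg3 did not hold with each library left out. The call of Rgs18 (any 1 library, adjusted p up to 0.127) was lost with libraries left out and also with the replicate block (adjusted p = 0.0574). Gfi1b was at 1301 and 1117 normalized counts without Dox and 1057 and 1041 with Dox (-0.20, limma adjusted p = 0.688), and Cdkn1a, the cell cycle inhibitor, had a log2 fold change of 0.45 (limma adjusted p = 0.101). No gene was called in the lists of cell cycle (34 tested, median 0.18), epiblast (14), immediate early and dissociation stress (23, median 0.43), amino acid and unfolded protein stress (20), cholesterol synthesis (20, median 0.40) or the 5 sex chromosome genes. Of the 20 cholesterol genes, 19 were above 0 and 18 had both Dox libraries above both untreated ones, against 34.6% of all genes. The summed counts of the stress list, which dissociation for sorting can raise, were 130400 and 233600 without Dox and 178600 and 263900 with Dox, higher with Dox within each replicate number although the groups overlapped, and 20 of its 23 genes were above 0. The part of sorting in the other lists was not tested. Endothelial genes gave 1 fall in 30 (Ramp2, -1.58, not called without Dox replicate 2, -1.20), and pluripotency genes 1 in 25 (Dppa3, -2.71), or 3 with the replicate block. The call of Dppa3 (adjusted p = 0.0592 without Dox replicate 2 and adjusted p = 0.0529 without No Dox replicate 1) was lost with 1 library left out. In the epiblast list 2 genes rose with the replicate block and 2 against all 14 untreated libraries. Of the 25 pluripotency genes 19 were below 0, with a median of -0.83. In 17 of them both Dox libraries were below both untreated ones, against 32.5% of all genes. The list's median was -1.62 in iAtoh1, -1.12 in iPou4f3 and -2.325 in iP+A. Pou5f1 overlapped between the groups at 1417 and 1107 normalized counts without Dox and 1545 and 928 with Dox. Ramp2 and Rgs18 were not called against all 14 untreated libraries. Among other settings, calls ended for Rgs18 (a pseudocount of 0.5).

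In the remaining lists 3 genes at most were called. Among 11 factors with a SNAG domain Insm2 (2.18) rose beside Gfi1 and Snai2 fell. Among 21 neural progenitor genes Gbx2 (2.72), a factor of the hindbrain border, rose and Zic1 (-2.14) and En1 (-2.51) fell, and among 20 otic genes the neural crest and glial factor Sox10 rose (1.74). However, 15 of the 20 otic genes were below 0, with a median of -0.48. Of 34 potassium channel genes Kcnv1 (2.81) and Kcnd2 (1.72) rose and Kcnn3 (-1.92) fell. Among 28 immune genes the complement protein C3 (2.18) rose and the chemokine Ccl2 (-2.996) fell. Single falls included those of the death receptor Fas (-1.54) in the list of p53 and cell cycle inhibitors, Ndrg1 (-1.54) in that of hypoxia, Tdrd1 (-2.09) in that of the germline and Hand1 in that of trophoblast. The calls of Insm2 (any 1 library but No Dox replicate 2, adjusted p up to 0.366), Gbx2 (any 1 library, adjusted p up to 0.223), En1 (adjusted p = 0.14 without Dox replicate 2 and adjusted p = 0.129 without No Dox replicate 1), Sox10 (any 1 library but No Dox replicate 1, adjusted p up to 0.373), Kcnv1 (adjusted p = 0.0976 without Dox replicate 1 and adjusted p = 0.114 without No Dox replicate 1), Kcnd2 (adjusted p = 0.052 without No Dox replicate 2), C3 (adjusted p = 0.0714 without No Dox replicate 2), Fas (adjusted p = 0.0612 without Dox replicate 1 and log2 fold change -1.39 without No Dox replicate 1), Ndrg1 (adjusted p = 0.0531 without Dox replicate 1) and Tdrd1 (adjusted p = 0.0575 without Dox replicate 1 and adjusted p = 0.074 without No Dox replicate 2) were lost with 1 library left out. In the hypoxia list 4 genes fell without Dox replicate 2, whereas none fell without Dox replicate 1, with both other scalings or against all 14 untreated libraries. Falls numbered 2 in the trophoblast and potassium channel lists without Dox replicate 2, in the germline list without No Dox replicate 1 and in the immune list without No Dox replicate 2. With all 14 untreated libraries as the control, Fas, Insm2, Ndrg1 and Sox10 were not called either. Calls also ended for Fas (a pseudocount of 5), Gbx2 (limma without a trend), Insm2 (a pseudocount of 0.5, a pseudocount of 5, quantile normalization, a fit of only the groups compared and limma without a trend), Kcnv1 (a pseudocount of 5), Ndrg1 (quantile normalization and 75th percentile rescaling), Sox10 (a pseudocount of 5, no filter, quantile normalization, a fit of only the groups compared and limma without a trend) and Tdrd1 (a pseudocount of 5).

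The X chromosome held a higher share of falls than the genome. Of 611 genes tested on the X chromosome 33 fell and 9 rose, so that 5.40% fell against 2.67% of all genes. Nxf7, Kctd12b and Plac1 were among them, and the median log2 fold change of X genes was -0.04. In the other lines with Gfi1 the share was 8.51% against 4.95% in iG+A, 9.33% against 5.36% in iG+P and 9.82% against 5.31% in iGPA. In the lines without it the share was 4.09% against 2.52% in iAtoh1, 0.982% against 0.606% in iPou4f3, where 6 X genes fell, and 2.78% against 2.58% in iP+A, close to that of all genes. Xist, the RNA that silences an X chromosome, was at 137 and 99.03 normalized counts without Dox and 82.2 and 59.8 with Dox (-0.72, limma adjusted p = 0.266).

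The other lines of the series show which of these changes return when Gfi1 is induced with partners. The lines share no libraries, so each gives its own Dox effect. Of the 449 genes that fell in iGfi1, 334 also fell in iG+P (74.4%, which is 37.0% of the falls in iG+P), 239 in iG+A (53.2%, 28.7%) and 270 in iGPA (60.1%, 30.2%). Among all genes tested 5.36%, 4.95% and 5.31% fell in these lines. In the lines without Gfi1, 12 of the 449 fell in iPou4f3 (2.67%, 11.8% of its falls, against 0.606% of all genes), 74 in iAtoh1 (16.5%, 17.4%, against 2.52%) and 53 in iP+A (11.8%, 12.2%, against 2.58%). The median log2 fold change of the 449 genes was -2.18 in iG+P, -1.94 in iGPA and -1.60 in iG+A, but -0.17 in iPou4f3. Of the 362 genes that rose, 237 rose in iG+P (65.5%, 27.3% of its rises), 202 in iG+A (55.8%, 16.3%) and 213 in iGPA (58.8%, 14.6%), against 5.16%, 7.35% and 8.65% of all genes. Without Gfi1 they were 33 in iPou4f3 (9.12%, 13.3%), 57 in iAtoh1 (15.7%, 11.7%) and 67 in iP+A (18.51%, 8.46%), against 1.47%, 2.89% and 4.70% of all genes. In all 4 lines with Gfi1 180 genes fell and 153 rose, or 113 and 109 without iGfi1 Dox replicate 1. Of these, 114 and 85 were not called the same way in any line without Gfi1. In no other line were 32 of the falls and 54 of the rises called in either direction.

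**Figure D4:**
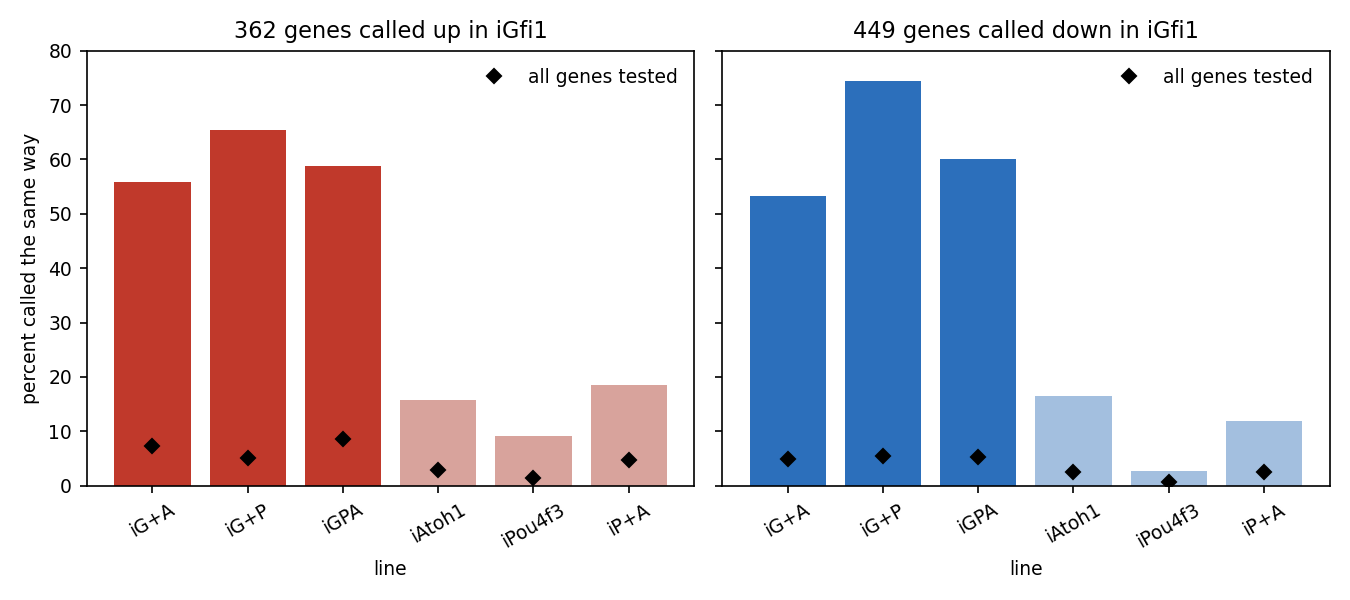
Bars give the percentage of the 362 genes called up (left) or the 449 called down (right) in iGfi1 that were called the same way in each of the other 6 lines, dark for lines with Gfi1 and light for lines without, and black diamonds give the percentage of all 16837 genes so called in that line. The dark bars reach 53.2% to 74.4%, and the light bars stay below 20%.

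The falls shared by the 4 lines were led by Plac1, with a median log2 fold change over the lines of -5.78, followed by Hoxb6 (-5.39), Nxf7 (-5.10), Svep1 (-4.94), Smoc2 (-4.87), a matrix calcium binding protein, and Fmod (-4.49). Kctd12b (-4.32), 5031426D15Rik (-4.26), Tcp11x2 (-4.25) and Asb10 (-4.21) completed the 10. Plac1 had log2 fold changes of -2.90 in iGfi1, -5.88 in iG+A, -5.69 in iG+P and -5.98 in iGPA, and whether these differ was not tested. Of these 10 genes, 5 also fell without Gfi1. Plac1 fell in iAtoh1 (-2.76) and iP+A (-1.93), as did Smoc2 (-3.12 and -1.91), and Svep1 (-2.31), Fmod (-3.92) and 5031426D15Rik (-1.66) fell in iAtoh1. The shared rises were led by Pcdhgb2 (9.32), Rtl5 (7.26), Flrt1 (7.23), Gfi1 (7.13), Btbd17 (6.91) and 2900052N01Rik (6.71), then Stra6 (6.28), a gene without a name here (Entrez ID 624918, 6.21), Kcnj12 (5.75) and Btnl10 (5.56). Pcdhgb2 was listed at 0 without Dox in iGfi1, so its median rests on the pseudocount and is no measure of a fold, and the same holds for Flrt1. Several of these also rose without Gfi1. Stra6 rose by 4.99 in iAtoh1, 1.84 in iPou4f3 and 3.53 in iP+A, Kcnj12 and Btnl10 rose in all 3 of these lines, and Gfi1 itself rose in iPou4f3 (1.55) and iP+A (1.65). Btbd17 and the unnamed gene rose in iAtoh1 (4.77 and 2.24) and iP+A (5.37 and 8.72), and Rtl5 in iP+A (4.88). With 1 library left out the calls in iGfi1 of Rtl5 (adjusted p = 0.0551 without Dox replicate 1 and adjusted p = 0.114 without No Dox replicate 2), Btbd17 (adjusted p = 0.139 without Dox replicate 1 and adjusted p = 0.0807 without No Dox replicate 2), the unnamed gene (any 1 library but Dox replicate 1, adjusted p up to 0.262), Hoxb6 (any 1 library, adjusted p up to 0.168), Smoc2 (adjusted p = 0.226 without Dox replicate 1 and adjusted p = 0.0966 without No Dox replicate 2), Fmod (adjusted p = 0.0552 without Dox replicate 1 and adjusted p = 0.0652 without No Dox replicate 1) and Asb10 (any 1 library but Dox replicate 2, adjusted p up to 0.239) were lost. The unnamed gene was not called against all 14 untreated libraries. Other settings ended the calls of the unnamed gene (a fit of only the groups compared).

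**Figure D5:**
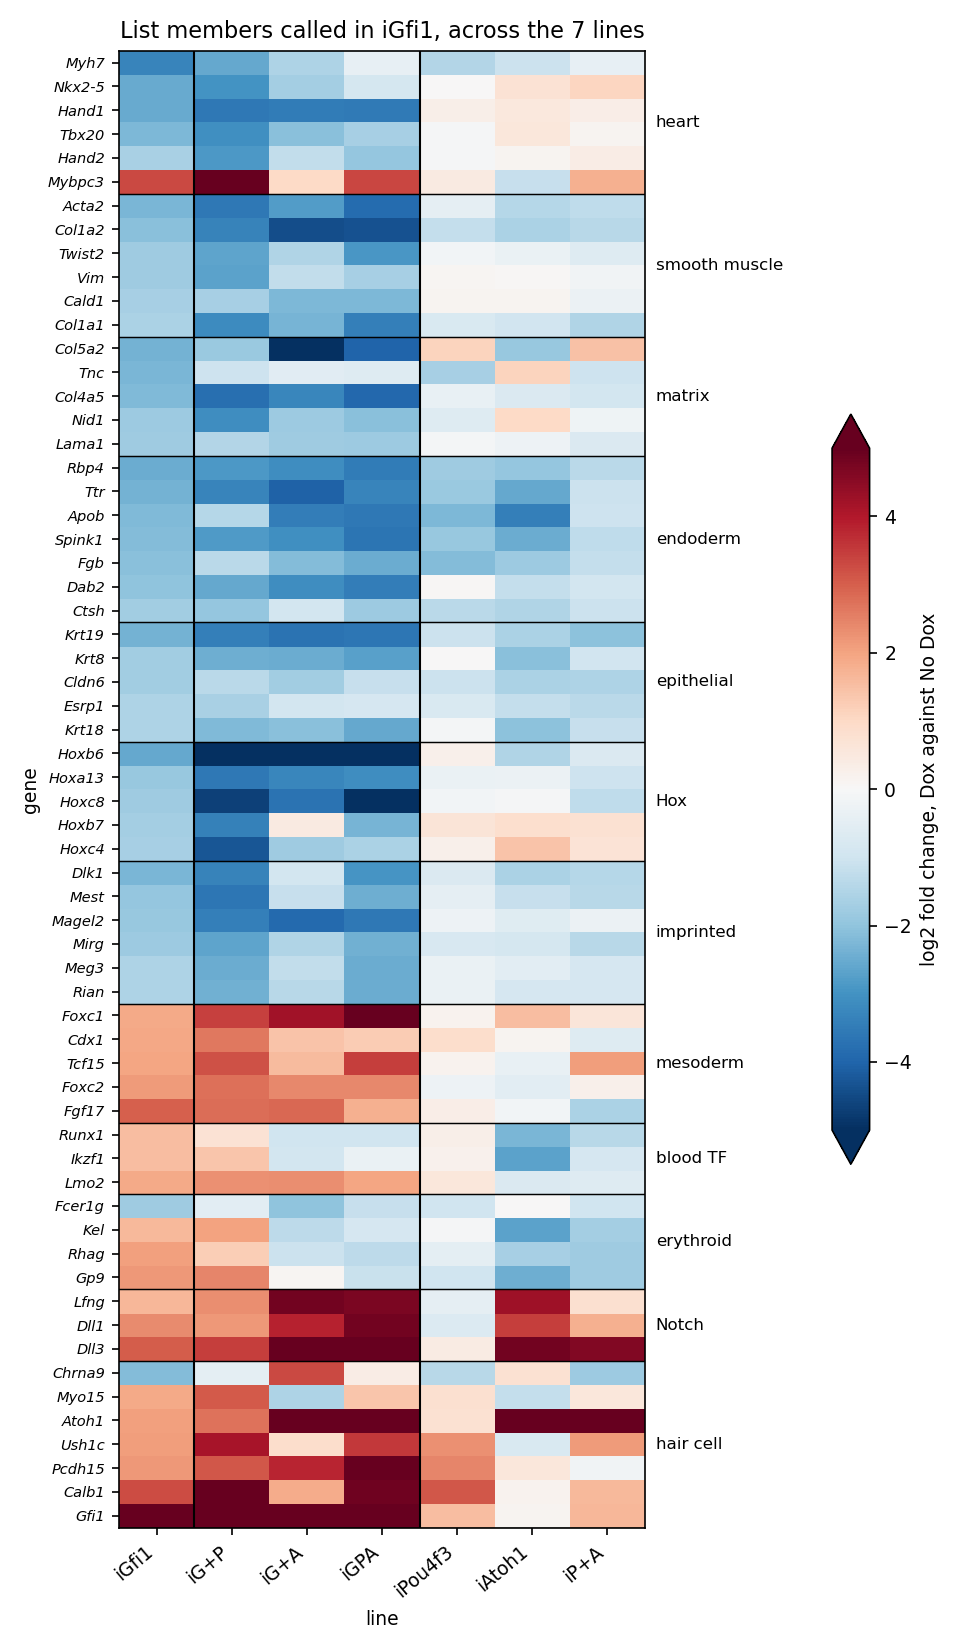
Rows are genes of 12 lists that were called in iGfi1 and are reported here, columns are the 7 lines with iGfi1 first, then the lines with Gfi1 and a partner and then those without Gfi1, and colour gives the log2 fold change between Dox and No Dox, capped at 5 in either direction. Most of the falls drawn for heart, matrix, Hox and imprinted genes are also blue in the other Gfi1 lines. Tnc, Hoxb7 and Myh7 are among those that are pale in some of them. Runx1, Ikzf1, Kel and Rhag are red in iGfi1 and iG+P and blue or pale in iG+A and iGPA.

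The difference between the Dox effect of iGfi1 and the mean Dox effect of iAtoh1, iPou4f3 and iP+A was tested for each gene. In this test 768 genes (4.56%) were lower and 626 (3.72%) higher in iGfi1. Of the 449 falls 224 (49.9%) differed downwards and none upwards, and of the 362 rises 233 (64.4%) differed upwards and 7 downwards. Against iPou4f3 alone, 224 of the falls and 174 of the rises differed in the same direction, where 580 genes (3.44%) were lower and 489 (2.90%) higher. Among heart genes Hand1 differed by -2.90 (limma adjusted p = 2.02e-05), with a Dox effect of 0.53 in iAtoh1, 0.31 in iPou4f3 and 0.34 in iP+A, and it fell in all 4 lines with Gfi1. Tbx20 (-2.47, adjusted p = 4.05e-04), Wnt11 (-2.77, 2.54e-04), Lgals1 (-2.71, 1.48e-06) and Vim (-1.77, 4.81e-05) also differed downwards. Acta2 (-1.22, limma adjusted p = 0.0624), Col1a2 (-0.72, 0.27) and Col1a1 (-0.52, 0.393) did not pass. In the lists, 3 of 24 smooth muscle and fibroblast genes and 7 of 32 collagen and basement membrane genes differed downwards, and none upwards. Of the 15 blood transcription factors 8 differed upwards and 1 downwards, with Runx1 at 2.66 (adjusted p = 2.87e-05), Ikzf1 at 2.63 (4.17e-06) and Lmo2 at 2.14 (1.17e-04). Against iPou4f3 alone the differences of these 3 genes were 1.25, 1.32 and 1.30 and none was called, and in iAtoh1 their Dox effects were -2.27, -2.66 and -0.71. Runx1 had Dox effects of 0.71 in iG+P, -0.99 in iG+A and -0.99 in iGPA, so it rose past the limit with Gfi1 alone and was below 0 in the lines with Atoh1. Dll3 and Dll1 did not differ past the threshold (-0.26 and 0.86, adjusted p = 0.824 and 0.334), and they rose in iAtoh1 by 4.83 and 3.44. For Apob the difference was 0.03 and for Fmod -0.89, and these falls were thus not shown to differ from the lines without Gfi1 (adjusted p = 0.986 and 0.534).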

How the data were processed

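RNA was measured in 28 libraries of 14 groups with 2 replicates each, made with the KAPA mRNA HyperPrep kit from total RNA. The authors trimmed reads with cutadapt, quantified them with Kallisto against UCSC mm9 transcripts and normalized gene counts with DESeq2 (versions not given in the sources used here). The deposited values were log2(normalized count + 1), as the values show, for 19421 genes by Entrez ID. No columns of the authors' own comparisons were used.

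Limma 3.58.1 (R 4.3.3) was fitted with a mean trend to all 14 groups, over the 16837 genes that reached 10 normalized counts in 2 or more libraries. The fit had 14 residual degrees of freedom, and p-values were adjusted per contrast by the Benjamini-Hochberg method. Whole reads could not be recovered (72.4% to 79.6% of low values within 0.05 of a whole read), so no count test was run. Depth was estimated from the value of 1 read. Names came from RefSeq tables (19314 genes matched), positions from NCBIM37, which is mm9. Python 3.11.15 was used for summaries, and the fit was checked on simulated data.

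Named genes were Gfi1, Atoh1 and Pou4f3, the 15 largest rises and falls with groups apart and a mean of at least 50 in the higher group that did not switch between 0 and over 50 in untreated libraries, members of the lists, and the 10 largest each way in all 4 Gfi1 lines and in the difference from the lines without Gfi1. The other genes named were chosen after their values were seen. Some genes that met these rules are not reported here. The comparison and lists were chosen with earlier results of these data known. Alternatives changed the pseudocount, filter, scaling, control group, trend, samples fitted, size limit, motif and libraries.

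Replicate numbers were taken to pair the libraries, since the series record calls replicates clones and deviations of equal numbers correlated by 0.10 to 0.25 in every line. The fit without the block was the main one.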

Additional observations from a re-analysis of the deposited data

Results flagged for a closer look

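The Dox effect of iGfi1 differed from the mean Dox effect of the 3 lines without Gfi1 for 626 genes upwards and 768 downwards (limma, adjusted p under 0.05 and a difference of at least 1.5 on the log2 scale). Groups of 2 libraries are too small to single out 1 library as far from the rest.

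Of the genes called in iGfi1, the 10 largest differences upwards began with Ints2 (9.95), a subunit of the Integrator complex, with 479 and 450.3 normalized counts in the Dox libraries and none in the untreated ones. In untreated libraries of other lines Ints2 ran from 0 to 669. Pcdhgb2 (8.45) and Gfi1 (6.21) came next. Flrt1 differed by 5.99, and H2-T24, a class I histocompatibility gene, by 5.89, with untreated libraries of the series from 0 to 231 for the latter. Tctex1d1 differed by 5.82, the immune receptor Tigit by 5.70, the X-linked homeobox gene Rhox2d by 5.26, Cdh9 by 5.25 and Zkscan7 by 5.02.

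Downwards the differences began with Zfp689 (-7.86), which was above 0 in all 14 untreated libraries and listed at 0 in both iGfi1 Dox libraries. Insyn2b (-7.43), 9130019O22Rik (-6.98), Zfp764 (-6.55), Smco3 (-5.90), Lrrc17 (-5.13) and 4933409K07Rik (-4.79) were also listed at 0 with Dox, and each was at 0 in some untreated library of the series. The beta protocadherins Pcdhb11 (-5.46) and Pcdhb2 (-4.83) were at most 15.02 and 10.01 normalized counts in the 4 iGfi1 libraries. Asb2, a ubiquitin ligase adaptor of muscle and blood cells, differed by -5.11, with a log2 fold change of -2.35 in iGfi1 and 4.58 in iAtoh1. Where a group is listed at 0, the difference rests on the pseudocount of 1 and is not the size of a fold.

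Leaving out 1 iGfi1 library ended the calls in iGfi1 of Ints2 (any 1 library, adjusted p up to 0.0891), Tigit (any 1 library, adjusted p up to 0.143), Zkscan7 (any 1 library, adjusted p up to 0.165), Cdh9 (adjusted p = 0.0653 without No Dox replicate 2), 9130019O22Rik (any 1 library, adjusted p up to 0.161), Asb2 (any 1 library but Dox replicate 1, adjusted p up to 0.229), Smco3 (adjusted p = 0.0733 without Dox replicate 1 and adjusted p = 0.185 without No Dox replicate 1), Pcdhb2 (adjusted p = 0.0906 without Dox replicate 2) and 4933409K07Rik (adjusted p = 0.0578 without Dox replicate 1 and adjusted p = 0.0646 without No Dox replicate 1). Against all 14 untreated libraries the calls of Ints2 (adjusted p = 0.0716), H2-T24 (adjusted p = 0.0742), Zkscan7 (adjusted p = 0.0606), 9130019O22Rik (adjusted p = 0.207), Smco3 (adjusted p = 0.198), Pcdhb2 (adjusted p = 0.0559) and 4933409K07Rik (adjusted p = 0.169) were lost, as was that of Asb2, whose log2 fold change was then -0.93 (adjusted p = 0.373). The fit of only the groups compared ended those of Smco3, Asb2 and Pcdhb2, a pseudocount of 5 those of Pcdhb2 and 9130019O22Rik, and limma without a trend that of 9130019O22Rik.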

How the results depend on the processing

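The result rests on 2 clones per group. None of the 160 genes followed through the alternatives, which do not include most genes named as not called, reversed its direction, and 79 of 159 named genes called in iGfi1 were called with each library left out in turn, whereas 80 were not. A lower size limit of 1 on the log2 scale gave 656 rises and 991 falls in iGfi1, 64 and 140 among the list genes, 240 and 377 in all 4 lines with Gfi1, 1008 and 1402 for the difference from the lines without Gfi1 and 1072 lower for that from iPou4f3. With 1 iGfi1 library left out, the rises ranged from 223 to 334 and the falls from 291 to 546, list rises from 24 to 38 and list falls from 47 to 83. Over the same fits, rises in all 4 lines ranged from 108 to 134 and falls from 113 to 197, and genes higher and lower than in iPou4f3 ranged from 319 to 454 and from 380 to 700. For the difference from the lines without Gfi1 the ranges were 440 to 595 upwards and 598 to 856 downwards. Each lowest count of falls came without Dox replicate 1. Where leaving out left 1 library in a group, that library was assumed to vary like the other groups. With all 14 untreated libraries as the control, 348 genes rose and 337 fell, so that 49.2% of calls were falls against 55.4% in the comparison within the line, and 46 named genes were no longer called. Rescaling by the 75th percentile gave 396 rises and 410 falls (50.9% falls), and the median of all genes was 0.02, 0.04 and 0.07 as deposited, after quantile normalization and after that rescaling. Of the promoter shares, the 2 longer motifs gave 3.74% and 3.74% for falls and 0.901% and 1.5% for rises. The cause of these shifts was not tested, and low counts limit the genes below 50 normalized counts.

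With the replicate number as a block, 384 genes rose and 479 fell in iGfi1, and 48 and 83 among the list genes. The block ended the calls of Rgs18 and Apob and no other named call. It raised the mesoderm rises from 5 to 10, the epiblast rises from 0 to 2, the definitive endoderm falls from 3 to 5 and the pluripotency falls from 1 to 3, and it gave 1 more rise in the trophoblast and immune lists and 1 more fall in the hair cell, germline and erythroid lists. Smooth muscle falls went from 6 to 8, cardiac and epithelial falls from 5 to 6 and Hox falls from 6 to 7. Retinoic acid rises went from 2 to 3. Falls of known Gfi1 targets went from 3 to 2 and those of visceral endoderm from 8 to 7.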

Other observations

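Some genes moved in opposite directions with Gfi1 alone and with Atoh1 alone. Of the 362 genes that rose in iGfi1, 32 fell in iAtoh1, where 2.52% of all genes fell. Among them were Runx1, Ikzf1, Kel, Rhag and Gp9 of the blood lists, with log2 fold changes of -2.27, -2.66, -2.69, -1.64 and -2.44 in iAtoh1. In iG+P the same 5 genes had log2 fold changes of 0.71, 1.40, 2.01, 1.22 and 2.44, and Kel and Gp9 passed there. In the opposite sense 14 of the 449 genes that fell rose in iAtoh1, a share near the 2.89% of all genes that rose there.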
